A study of Ovis aries with 49 samples.

Results

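The mRNAs of cytosolic ribosomal proteins were described in 5 adipose depots of lambs at 7 and 28 days of age. Members were taken by gene symbol, as every probe set whose symbol begins with RPL or RPS and a digit, or is RPLP0, RPLP1 or RPLP2. The S6 kinase genes, RPS4Y1 and pseudogenes were left out. This gave 55 of 10273 probe sets, 1 probe set for each gene, with 35 proteins of the large and 20 of the small subunit. The rule passed over 8 symbols that begin in the same way, 5 of them S6 kinase genes or the antisense gene of one (RPS6KA2, RPS6KA3, RPS6KA4, RPS6KB1 and RPS6KA2-AS1), along with RPS19BP1 and the pseudogenes RPL32P3 and RPL23AP32. Of the 55 members 48 belong to the common set of ribosomal proteins and 7 are paralogues with restricted or minor roles, such as RPL22L1, RPL36AL and RPS27L. RPLP0, RPL4, RPL5, RPL10, RPL13A, RPS2 and RPS26 were not analysed here.

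Ribosomes translate mRNA into protein, and each is built of a small subunit, which reads the mRNA, and a large subunit, which joins the amino acids. Their protein mRNAs are among the most abundant of most cells and share a tract at their start through which translation responds to the nutrient sensor mTORC1. In lambs the brown fat present at birth is replaced by white fat in the first weeks of life, a period in which tissue mass and protein synthesis change.

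The arrays hold RNA of epicardial, omental, perirenal, sternal and subcutaneous fat of lambs killed at 7 or at 28 days. Each of the 10 combinations of depot and age was 1 group of 5 arrays, except subcutaneous fat at 7 days with 4, which makes 24 arrays at 7 days and 25 at 28 days. The lambs were sex-matched twins of Bluefaced Leicester cross Swaledale ewes, with 1 twin killed at each age, and the title of every array holds the letter C between tissue and age, which the labels do not spell out. The study's methods describe ewes on a standard diet and others given canola oil as well, and the labels used here do not state in words which diet these ewes had. The labels carry a replicate number without saying that it is an animal. The methods take several depots from each animal, so arrays that share a number may share a lamb, and the depots of an age were also compared with the number as a replicate block. A p-value here sets a difference between groups only against the spread of these samples, which may be technical. The numbers are written as letters (A to G at 7 days, H to O at 28 days). The sheep RNA was applied to U133 Plus 2 arrays of Affymetrix, made for human transcripts, on which signal depends on the fit of human probes as well as on abundance, and 53 of the 55 symbols also name a sheep gene in RefSeq. In whole tissue, fewer cells of a type and less RNA per cell cannot be told apart.

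Values are GCRMA signals on the log2 scale, on which a step of 1 is a factor of 2. Most of the table lies near its lowest signal, with 82.7% of all values below 4. Of the 55 members 44 averaged at least 4 over the 49 arrays, 25 of the large and 19 of the small subunit, and the other 11 members are 10 large subunit genes and RPS27L. The median over the members' averages was 9.06 against 2.69 over all probe sets, and 23 members averaged above 10 (11 large and 12 small). In 21 members an identical value recurs on at least 10 arrays, such as 2.49 on 32 arrays for RPLP2, 6.87 on 23 for RPL23A and 6.62 on 13 for RPL37A, so the spread of these probe sets is partly that of a repeated value. Markers of other tissues were present in some arrays. CKM, the creatine kinase of muscle, exceeded 4 in sternal replicates D at 7 days and J, N and O at 28 days. In subcutaneous fat it did so in A, E and G at 7 days and in J and M at 28 days. Of 12 measured heart muscle markers 10 were called higher in epicardial fat at each age. Adipocyte markers were thinly measured, with only 2 of 10 averaging above 4. The mean over all probe sets was 3.27 in sternal fat at 28 days against 3.40 to 3.42 in the other depots at that age, so sternal differences were also computed after centring.

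On the deposited scale, averaged over the members with a mean of at least 4, and taken as the deviation from each probe set's own average over the 49 arrays, ribosomal protein signal was highest in perirenal fat at 7 days and lowest in sternal fat at 28 days. The perirenal mean at 7 days was 0.18 ± 0.04 (SD, n = 5) for the large and 0.19 ± 0.10 for the small subunit. In sternal fat the large subunit averaged 0.12 ± 0.07 at 7 days and -0.16 ± 0.12 at 28 days, and the small subunit 0.11 ± 0.11 and -0.31 ± 0.12. The small subunit deviations of the 5 sternal arrays at 7 days were 0.13 (D), 0.23 (F), 0.10 (G), 0.17 (B) and -0.06 (E), and those at 28 days -0.25 (I), -0.46 (J), -0.18 (M), -0.24 (N) and -0.42 (O). The sternal groups did not overlap in the small subunit. In the large subunit replicate I at 28 days, at 0.02, lay above replicate E at 7 days, at -0.01. The lowest arrays, J and O, were also those with the highest CKM signal of the group, 12.7 and 11.3, against 2.73 in I, 2.88 in M and 4.51 in N, and the part of muscle RNA in the fall was not tested beyond leaving these arrays out. The order of the depots depended on the scale. With arrays centred on the probe sets averaging at least 4 that are not members, most called members were higher in sternal fat at 28 days. At 7 days the median difference from the other depots, over all members, was 0.05 in perirenal, 0.12 in omental and 0.17 in sternal fat.

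**Figure D1:**
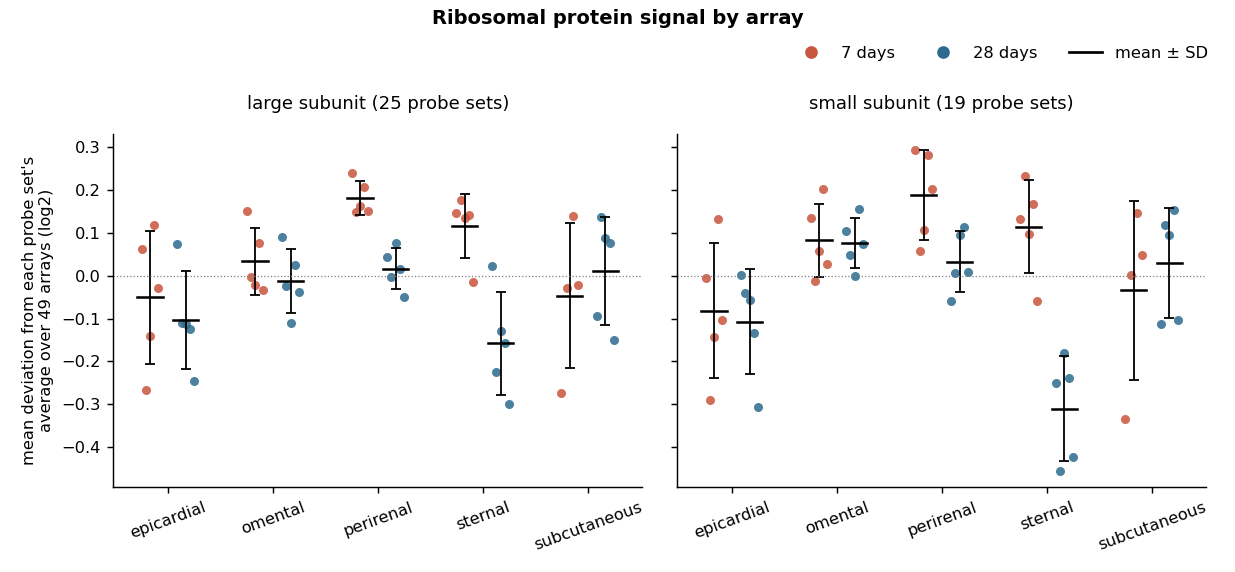
Mean deviation of ribosomal protein probe sets from their own average over the 49 arrays (vertical axis, log2) by depot (horizontal axis), for 25 large subunit and 19 small subunit probe sets averaging at least 4. Each point is 1 array, those at 7 days in red and those at 28 days in blue, with bars for mean ± SD, with sternal fat at 28 days at -0.16 ± 0.12 in the large and -0.31 ± 0.12 in the small subunit.

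Among the members RPS9 differed most clearly between depots at 7 days. An F test over the 5 depots in limma called 11 of 55 members (adjusted p by Benjamini-Hochberg no larger than 0.05, the threshold used throughout), where 8.16% of all probe sets were called (27.6% of those averaging at least 4, of which 11 of 44 members). They were RPL3, RPL9, RPL14, RPL19, RPL29, RPL32 and RPL36 of the large and RPS9, RPS18, RPS19 and RPS27 of the small subunit. The count was 5 with the replicate block, 16 after quantile normalization or with arrays centred on their mean, and 36 with arrays centred on the bright probe sets (averaging at least 4) that are not members, an alternative chosen after seeing the data.

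RPS9, a protein of the small subunit body, measured 10.28 (A), 10.14 (D), 10.22 (G), 10.38 (B) and 10.21 (C) in perirenal fat at 7 days and 10.30 (D), 10.45 (F), 9.99997 (G), 9.94 (B) and 9.98 (E) in sternal fat. In subcutaneous fat it measured 9.05 (A), 9.39 (F), 9.38 (G) and 9.38 (E), and it averaged 9.68 ± 0.20 (SD, n = 5) in epicardial and 9.55 ± 0.17 in omental fat. All perirenal and sternal arrays lay above all arrays of the other 3 depots, whose highest was epicardial replicate C at 9.91. Set against the average of the other 4 depots, RPS9 differed by 0.58 (standard error 0.09, adjusted p = 0.000402 from limma) in perirenal fat and by -0.60 (standard error 0.09, adjusted p = 0.00195) in subcutaneous fat. The sternal difference of 0.44 (standard error 0.09, adjusted p = 0.0141) was no longer called without replicate F (0.36, adjusted p = 0.0503). With the sternal and subcutaneous arrays left out in which CKM exceeded 4, the sternal difference was 0.37 (adjusted p = 0.0841). The subcutaneous difference was then -0.50 (adjusted p = 0.224) and rested on replicate F alone, which is assumed to vary like the other groups.

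In perirenal fat at 7 days 5 of 55 members were higher, where 4.58% of all probe sets were. Besides RPS9 they were RPS14, of the platform of the small subunit (0.31, standard error 0.08, adjusted p = 0.0315), and RPL14, RPL35A and RPL36, each at 0.37. Most members average at least 4 and most probe sets do not, so no excess of higher members is read from the share of all probe sets. The count fell to 2 after quantile normalization and to 1, RPS9, under either centring and with the replicate block, where RPS14 was at 0.29 (adjusted p = 0.0592). The RPS14 call was lost when perirenal replicate A, B, C or G was left out (adjusted p up to 0.114). In sternal fat 3 members were higher, where 0.273% of all probe sets were. Of the 1752 probe sets averaging at least 4, 20 were higher, against 3 of 44 members. The other 2 were RPS19, the gene most often mutated in Diamond-Blackfan anaemia, at 0.34 (standard error 0.07, adjusted p = 0.02), lost without replicate F or G (adjusted p up to 0.0733), and RPL32, a common reference gene, at 0.23 (adjusted p = 0.0416), lost with any of 13 arrays left out. With the replicate block RPS9 was the 1 sternal call (adjusted p = 0.0477), and RPS19 had an adjusted p of 0.0979 and RPL32 of 0.172. Centring on the bright probe sets that are not members gave 18 higher in sternal fat. RPS19 was tight in sternal fat at 7 days, from 13.28 to 13.35 over 5 arrays.

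Epicardial fat had 4 members lower at 7 days, where 0.72% of all probe sets were lower. Among probe sets averaging at least 4, 4 of 44 members and 68 of all 1752 probe sets were lower. The count of lower members was 13 after quantile normalization or with arrays centred on their mean, 37 with arrays centred on the bright probe sets that are not members, and 1, RPS27 (adjusted p = 0.0322), with the replicate block. RPS27, a zinc finger protein of the small subunit, measured 9.98 (A), 9.51 (D), 9.56 (G), 9.90 (C) and 9.79 (E) there and averaged 10.38 ± 0.21 (SD, n = 5) in sternal and 9.95 ± 0.25 (n = 4) in subcutaneous fat, whose range of 9.59 to 10.17 overlaps the epicardial one. It was lower by -0.46 (standard error 0.10, adjusted p = 0.0087), and this was the only epicardial call at this age that was kept with each array left out in turn. RPL11, which with RPL5 and 5S rRNA forms the particle that restrains MDM2, was lower by -0.44 (adjusted p = 0.033, lost without epicardial replicate D, E or G or subcutaneous replicate E, adjusted p up to 0.128). RPS10 at -0.33 and RPL32 at -0.22 were also called, and lost without 5 and 2 arrays, respectively. RPLP2, an acidic protein of the stalk, was the 1 member called higher, by 0.24, where 3.35% of all probe sets were, but it lies near the lowest signal and was lost without epicardial replicate A or D (adjusted p up to 0.0578). Heart muscle markers summed to 77.5 to 97.9 over 12 probe sets in the epicardial arrays at 7 days, and their part in these differences was not tested.

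In subcutaneous fat at 7 days 2 of 55 members were lower, RPS9 and RPL32, where 0.701% of all probe sets were. Among probe sets averaging at least 4, 2 of 44 members and 56 of all 1752 probe sets were lower. RPL32 measured 11.48 (A), 11.65 (F), 11.60 (G) and 11.66 (E), against 11.93 to 12.16 over the 5 sternal arrays. The difference of -0.29 (standard error 0.06, adjusted p = 0.0141) was no longer called without replicate A (adjusted p = 0.0626) or with the replicate block (-0.32, adjusted p = 0.052). In omental fat limma called 0 of 55 members at 7 days, where 1.54% of all probe sets were called, and 6 members had an unadjusted p under 0.05.

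At 28 days the F test called 22 of 55 members, 10 large and 12 small, where 20% of all probe sets were called. Among probe sets averaging at least 4 it called 20 of 44 members and 57.1% of all. RPS7 had the smallest adjusted p (5.98e-08), followed by RPS14 (0.00027) and RPS9 (0.000364).

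Sternal fat at 28 days was the depot in which most members differed, 28 lower and 2 higher of 55. Of all probe sets 18.4% were lower and 1.65% higher there, and of those averaging at least 4 51.7% were lower, against 24 of 44 members. The members' median difference was -0.21 over the 44 and that of all bright probe sets -0.33. The share of members that were lower thus lay near that of bright probe sets, and nothing about ribosomal proteins as a group is read from it.

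RPS7, a small subunit protein, stood apart. It measured 9.94 (I), 9.96 (J), 9.99 (M), 10.04 (N) and 9.79 (O) in sternal fat at 28 days, and between 10.42 and 10.82 in the 20 arrays of the other depots. These sternal arrays at 28 days lay below every array of the other depots at either age. The difference at 28 days was -0.72 (standard error 0.05, adjusted p = 3.57e-09), and it stayed called when each array was left out in turn, after quantile normalization, after either centring and without the arrays with CKM above 4.

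RPS21, another small subunit protein, measured 9.37 (I), 8.78 (J), 9.27 (M), 9.40 (N) and 8.93 (O), below all 20 other arrays at this age, which began at 9.43. Its difference was -0.62 (standard error 0.09, adjusted p = 6.28e-05). RPS14 and RPL37 also lay below all other arrays, with differences of -0.29 (adjusted p = 8.62e-05) and -0.21 (adjusted p = 0.000412). RPL10A differed by -0.59 (adjusted p = 0.00126), RPS9 by -0.54 (adjusted p = 0.00011), RPL22L1 by -0.42, RPL36AL and RPS16 by -0.38, and RPL3 and RPL11 by -0.37. The calls of RPL3 and RPL22L1 were lost without single sternal arrays (adjusted p up to 0.118 and 0.0918), and without replicate J 18 members were called in place of 30.

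How many members were higher and how many lower depended on the scale. After quantile normalization 7 members were higher and 8 lower, and with each array centred on its mean 8 and 10. With each array centred on the bright probe sets that are not members 29 were higher and 2 lower, among the higher ones RPLP1 at 0.21 and RPL37 at 0.15. That centring shifts all probe sets alike, with their median going from -0.07 to 0.29, so the signs move with it and are read only relative to that median. Under that centring RPL3 and RPL11 lay at -0.01, RPS16 at -0.02, and RPS9 differed by -0.18 (adjusted p = 0.0687). With the sternal and subcutaneous arrays left out in which CKM exceeded 4, 2 members were higher and 8 lower. The 2 higher members in the deposited scale were RPL23A (0.27, adjusted p = 0.0155) and RPL19 (0.24, adjusted p = 0.0229), and each was lost without sternal replicate I.

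Other depots at 28 days held few calls. In omental fat 3 members were higher, where 4.76% of all probe sets were, namely RPS16 at 0.32 (standard error 0.07, adjusted p = 0.00947), RPS7 at 0.25 (standard error 0.05, adjusted p = 0.00309) and RPS14 at 0.19 (adjusted p = 0.0105). RPS16 measured 10.51 (I), 10.54 (J), 10.65 (M), 10.70 (N) and 10.81 (O) in omental fat, and overlapped perirenal fat, at 10.29 to 10.80. None of the 3 omental calls was kept after quantile normalization (adjusted p from 0.0522 to 0.268) or with arrays centred on the bright probe sets that are not members (0.0845 to 0.408). In perirenal fat RPL38, a large subunit protein linked to translation of Hox mRNAs, was higher by 0.52 (adjusted p = 0.0313) and RPS7 by 0.19 (adjusted p = 0.0344), where 2.87% of all probe sets were higher. Both were lost without perirenal replicate K, M or N, after quantile normalization, with arrays centred on the bright probe sets that are not members, with the replicate block (adjusted p = 0.225 and 0.162) and without the arrays with CKM above 4. In epicardial fat RPL38 was the 1 member lower, by -0.55 (standard error 0.14, adjusted p = 0.0244, lost without epicardial replicate N or O and, at 0.167, with the replicate block), where 0.506% of all probe sets were lower. In subcutaneous fat RPS9 was higher by 0.36 (adjusted p = 0.018, lost without subcutaneous replicate J or M) and RPS7 by 0.22 (adjusted p = 0.016, lost without I or M and, at 0.0927, with the replicate block), where 2.58% of all probe sets were higher. Of the 1752 probe sets averaging at least 4, 196 were higher in omental, 120 in perirenal and 128 in subcutaneous fat. In epicardial fat 40 of them were lower. Each depot is set against a mean that includes sternal fat, so the omental, perirenal and subcutaneous values of RPS7 contain its low sternal level.

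**Figure D2:**
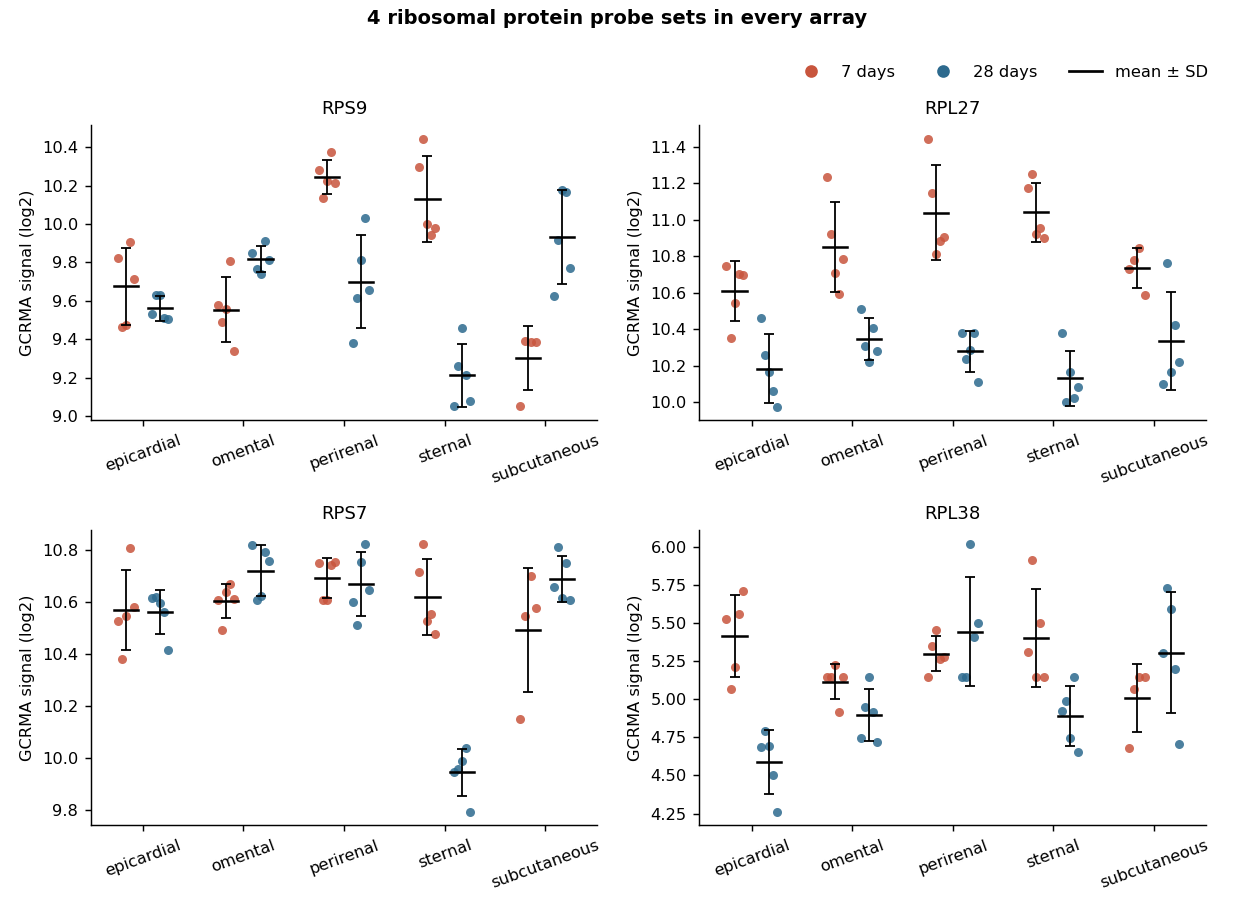
GCRMA signal (vertical axis, log2, a separate scale in each panel that does not start at 0) of RPS9, RPL27, RPS7 and RPL38 by depot (horizontal axis), with red points for arrays at 7 days, blue points for arrays at 28 days and bars for mean ± SD. RPS7 in sternal fat at 28 days lies at 9.79 to 10.04, below every other array, and RPL27 averages lower at 28 than at 7 days in all 5 depots.

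From 7 to 28 days, on the deposited scale, more members fell in sternal fat than in any other depot. In a fit of all 49 arrays 28 of 55 members were lower and 1 higher at 28 days, where 3.89% of all probe sets were lower and 2.47% higher. Among probe sets averaging at least 4, 26 of 44 members and 16.4% of all probe sets were lower. The median change was -0.22 over the 25 large and -0.44 over the 19 small subunit members, -0.35 over both and -0.07 over all bright probe sets. More tissue was taken for RNA at 28 than at 7 days in the study's methods, which cannot be told apart from age.

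The small subunit gave 13 of the 28 falls, RPS3, RPS7, RPS9, RPS10, RPS14, RPS15, RPS15A, RPS18, RPS19, RPS23, RPS27, RPS27L and RPS29. RPS9 fell from 10.13 ± 0.22 (SD, n = 5) to 9.21 ± 0.16, and its 28-day arrays measured 9.05 (I), 9.26 (J), 9.46 (M), 9.21 (N) and 9.08 (O). The change of -0.92 (standard error 0.11, adjusted p = 9.49e-08) left no overlap between the ages. RPS10, a protein at the head of the small subunit, measured 10.90 (D), 11.15 (F), 11.01 (G), 10.80 (B) and 10.45 (E) at 7 days and 10.04 (I), 10.04 (J), 10.13 (M), 10.11 (N) and 9.91 (O) at 28 days.

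RPS10 thus changed by -0.81 (standard error 0.10, adjusted p = 1.97e-07), again without overlap. RPS7 measured 10.71 (D), 10.82 (F), 10.53 (G), 10.55 (B) and 10.48 (E) at 7 days, and changed by -0.68 (standard error 0.08, adjusted p = 5.14e-08). RPS19 fell from 13.28 to 13.35 down to 12.41 to 12.85, a change of -0.66 (standard error 0.09, adjusted p = 6.81e-07). Its lowest array at 28 days was J. RPS27 changed by -0.69 (standard error 0.13, adjusted p = 0.000407), from 10.05 to 10.57 down to 9.16 to 9.95, and RPS14 by -0.44 (adjusted p = 0.000407).

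RPS6, the substrate of the S6 kinases, measured 12.85 to 12.99 at 7 days and 12.50 to 12.77 at 28 days in sternal fat, and its change of -0.25 was not called (adjusted p = 0.0866) although the ages did not overlap. RPS4X, a small subunit gene that is X-linked in humans, was the 1 member that rose. It measured 7.33, 7.69, 7.26, 7.69 and 6.97 in replicates D, F, G, B and E and 7.91, 7.73, 7.87, 7.78 and 7.88 in I, J, M, N and O, a change of 0.45 (standard error 0.11, adjusted p = 0.0102). This call was lost without replicate E (0.34, adjusted p = 0.064).

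The large subunit gave 15 falls, RPL3, RPL8, RPL9, RPL11, RPL12, RPL24, RPL27, RPL29, RPL30, RPL32, RPL34, RPL36AL, RPL37, RPL38 and RPLP1. RPL27 measured 11.18 (D), 11.25 (F), 10.92 (G), 10.96 (B) and 10.90 (E) at 7 days and 10.38 (I), 10.002 (J), 10.17 (M), 10.02 (N) and 10.08 (O) at 28 days. It changed by -0.91 (standard error 0.12, adjusted p = 3.93e-07), the largest change among the large subunit members in sternal fat. RPL11 measured 7.05 (D), 7.04 (F), 6.75 (G), 6.51 (B) and 6.47 (E) and then 6.54 (I), 5.93 (J), 6.33 (M), 5.96 (N) and 5.87 (O), so that replicate I at 28 days overlapped the younger arrays, and changed by -0.64 (standard error 0.13, adjusted p = 0.000791). RPL3, which lies close to the centre where peptide bonds form, changed by -0.58 (adjusted p = 0.0169), a call lost without replicate N or O (adjusted p up to 0.0768).

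Smaller changes were called where the spread was small. RPL32 changed by -0.42 (standard error 0.07, adjusted p = 5.43e-05), RPL37 by -0.27 (adjusted p = 0.00324) and RPLP1, another acidic stalk protein, by -0.19 (adjusted p = 0.0447). The RPLP1, RPL36AL (-0.40) and RPL38 (-0.51) calls were lost when single arrays were left out, 7, 19 and 6 of them respectively. Leaving out each array in turn gave 21 to 30 calls, and without sternal replicate O, the lowest count, 21.

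Most of the sternal falls stayed called on other scales, and fewer did without the arrays with muscle signal. With arrays centred on the bright probe sets that are not members, 21 members were lower in sternal fat (median change -0.20 over the 55), 39 in omental (-0.34) and 22 in perirenal fat (-0.25), so the order of the depots depends on the scale. Of the 28 falls 21 were still called after quantile normalization, 25 with arrays centred on their mean and 21 with arrays centred on the bright probe sets that are not members. With the sternal and subcutaneous arrays left out in which CKM exceeded 4, which leaves 4 sternal arrays at 7 and 2 at 28 days, all 28 changes were still negative and 8 were called. These were RPS9 at -0.84, RPS10 at -0.77, RPL27 at -0.74, RPS15 at -0.65, RPS7 at -0.63, RPS19 at -0.57, RPL29 at -0.46 and RPL32 at -0.38. RPL11 was then -0.26 (adjusted p = 0.455), RPL3 -0.26 (adjusted p = 0.624) and RPS27 -0.44 (adjusted p = 0.157). With only the 2 sternal groups in the fit 13 members were called, all lower.

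Other cell markers moved in sternal fat as well. The 15 measured skeletal muscle markers summed to 40.4 to 62.97 over the 5 arrays at 7 days and to 40.6 to 102.8 at 28 days, with ACTA1 and TNNT1 called higher. Of 7 fibroblast markers 5 were higher at 28 days (COL1A1, COL1A2, COL3A1, DCN and PDGFRA), with sums of 43.5 to 47.1 at 7 and 49.8 to 56.6 at 28 days. Of 4 brown adipocyte markers UCP1 and PPARGC1A were lower, with sums of 16.8 to 18.2 and then 12.3 to 12.997. Their part in the ribosomal protein changes was not tested.

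**Figure D3:**
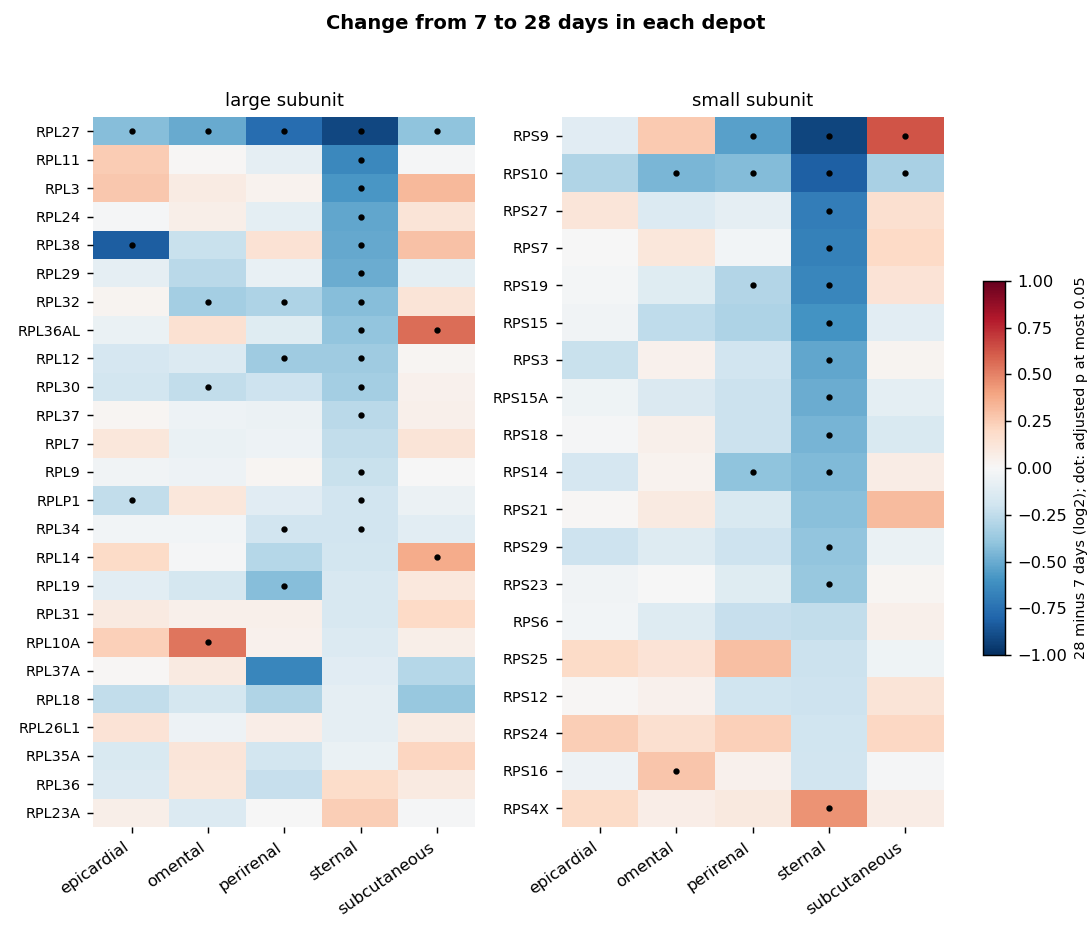
Change from 7 to 28 days (colour, 28 minus 7 days, log2) of the 44 ribosomal protein probe sets averaging at least 4 (rows, large subunit at left and small subunit at right, ordered by their change in sternal fat) in 5 depots (columns). Dots mark changes called by limma at 0.05 after adjustment, 26 of the falls standing in sternal fat, and RPL27 is marked in all 5 depots.

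RPL27 and RPS10 fell in most depots. RPL27, a large subunit protein, was called lower in all 5, by -0.91 in sternal, -0.76 (standard error 0.12, adjusted p = 1.18e-05) in perirenal, -0.50 (standard error 0.12, adjusted p = 0.00208) in omental, -0.43 (standard error 0.12, adjusted p = 0.0205) in epicardial and -0.40 (standard error 0.12, adjusted p = 0.0317) in subcutaneous fat. In perirenal fat it measured 11.45 (A), 11.15 (D), 10.81 (G), 10.88 (B) and 10.91 (C) at 7 days and 10.38 (I), 10.24 (J), 10.28 (M), 10.38 (N) and 10.11 (K) at 28 days. The ages did not overlap in sternal, perirenal and omental fat and overlapped in the other 2 depots. The epicardial call was lost without replicate A, E, N or O (adjusted p up to 0.0628) and the subcutaneous call without 6 single arrays (adjusted p up to 0.1).

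RPS10 was lower by -0.46 (standard error 0.10, adjusted p = 0.00111) in omental, -0.43 (standard error 0.10, adjusted p = 0.00291) in perirenal and -0.33 (standard error 0.11, adjusted p = 0.0459) in subcutaneous fat, and by -0.30 (adjusted p = 0.0729) in epicardial fat, where it was not called. In omental fat it lay at 10.60 to 10.98 at 7 days and at 10.24 to 10.44 at 28 days. The subcutaneous call was lost with any of 7 arrays left out. RPL32 fell without overlap in sternal, omental (-0.34, standard error 0.07, adjusted p = 0.000775) and perirenal fat (-0.31, standard error 0.07, adjusted p = 0.00277).

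In perirenal fat 9 of 55 members were lower and 0 higher by limma, where 3.09% of all probe sets were lower (8.9% of those averaging at least 4), and 18 members had an unadjusted p under 0.05 in either direction. RPS9 fell from 10.25 ± 0.09 (SD, n = 5) to 9.70 ± 0.24, by -0.55 (standard error 0.11, adjusted p = 0.000495), with no array in common range. RPL19, another reference gene, measured 9.36 (A), 9.35 (D), 9.14 (G), 9.32 (B) and 9.26 (C) and then 8.84 (I), 8.99 (J), 8.72 (M), 8.90 (N) and 8.87 (K), a change of -0.42 (standard error 0.10, adjusted p = 0.00304). RPS14 changed by -0.40 (standard error 0.08, adjusted p = 0.00103) and RPS19 by -0.30 (adjusted p = 0.0208, lost without perirenal replicate B or I, adjusted p up to 0.0605). RPL12 and RPL34 complete the 9.

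Omental fat had 4 members lower, where 1.03% of all probe sets were lower, and 2 higher, where 13.5% were higher. Of the 1752 probe sets averaging at least 4, 56 were lower and 522 higher. The lower members were RPL27, RPS10, RPL32 and RPL30. RPL10A, whose ribosomes favour a subset of mRNAs in some cells, measured 4.28 (A), 4.35 (D), 3.86 (G), 4.67 (C) and 4.18 (E) at 7 days and 5.06 (I), 4.51 (J), 4.55 (M), 5.17 (N) and 4.73 (O) at 28 days, a change of 0.54 (adjusted p = 0.0298) that was lost without omental replicate E, G, I or N (adjusted p up to 0.11). RPS16 changed by 0.28 (adjusted p = 0.0411, lost with any of 7 arrays left out). After quantile normalization 18 members were lower and 0 higher in omental fat, with arrays centred on their mean 17 and 0, and with arrays centred on the bright probe sets that are not members 39 and 0.

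Epicardial fat had 4 members lower at 28 days, where 1.63% of all probe sets were lower. Most members average at least 4 and most probe sets do not, so no excess of lower members is read from that share. RPL38 led with 5.53 (A), 5.07 (D), 5.21 (G), 5.56 (C) and 5.71 (E) at 7 days and 4.69 (I), 4.79 (J), 4.69 (L), 4.50 (N) and 4.26 (O) at 28 days. The ages did not overlap, and the change was -0.83 (standard error 0.16, adjusted p = 0.000548). RPLP1 changed by -0.25 (standard error 0.06, adjusted p = 0.00908), also without overlap, and RPLP2 by -0.23 (adjusted p = 0.00947, lost without epicardial replicate A, adjusted p = 0.0658). Heart muscle markers summed to 34.8 to 96.2 in the epicardial arrays at 28 days, and their part was not tested.

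In subcutaneous fat RPS9 and RPL36AL rose. RPS9 went from 9.30 ± 0.17 (SD, n = 4) to 9.93 ± 0.24 (n = 5), with 9.62 (H), 9.92 (I), 10.18 (J), 10.17 (M) and 9.77 (N) at 28 days, all above the 7-day arrays. The change was 0.63 (standard error 0.12, adjusted p = 0.000372). RPL36AL, a retrocopy of RPL36A, measured 9.91 (A), 10.33 (F), 10.33 (G) and 10.08 (E) and then 10.45 (H), 10.99 (I), 10.98 (J), 10.82 (M) and 10.35 (N), a change of 0.56 (standard error 0.13, adjusted p = 0.00533). In all 3 members were higher, where 7.68% of all probe sets were, and 2 lower, where 1.57% were, the third rise being RPL14 and the falls RPL27 and RPS10. Of the 1752 probe sets averaging at least 4, 364 were higher and 70 lower. Muscle signal moved with the changes of the members, since the skeletal muscle markers summed to 41.4 to 110.5 at 7 days and to 41.8 to 59.3 at 28 days, with 7 of 15 called lower. With the sternal and subcutaneous arrays left out in which CKM exceeded 4, RPS9 changed by 0.38 (adjusted p = 0.408) and RPL36AL by 0.27 (adjusted p = 0.811), with 1 subcutaneous array left at 7 days.

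The change with age was then compared between depots, as the change in 1 depot less the mean change of the other 4, in the same fit. In sternal fat this difference was negative for 19 called members and positive for none, where 4.98% of all probe sets were lower (18.9% of those averaging at least 4, against 18 of 44 members). RPS9 changed by -0.98 more (standard error 0.12, adjusted p = 1.66e-06), RPS7 by -0.75 (standard error 0.09, adjusted p = 5.51e-07) and RPS19 by -0.58 (standard error 0.10, adjusted p = 0.000153). RPS7 changed by -0.01 in epicardial, 0.12 in omental, -0.02 in perirenal and 0.20 in subcutaneous fat, none of them called.

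RPL3 (-0.75, adjusted p = 0.00664), RPS27 (-0.70, adjusted p = 0.0025) and RPL11 (-0.68, adjusted p = 0.00279) were among the 19 too, and without the arrays with CKM above 4 they were -0.37, -0.45 and -0.28 and no longer called. The count of 19 was that of the deposited scale. It became 2 higher and 6 lower with arrays centred on their mean, and 9 higher and 6 lower with arrays centred on the bright probe sets that are not members. RPS9, RPS7 and RPS19 were called lower under both centrings and without the arrays with CKM above 4, with RPS9 at -0.89, -0.74 and -0.83 and RPS7 at -0.66, -0.51 and -0.69. After quantile normalization RPS19 was not called (-0.28, adjusted p = 0.16). Leaving out 1 array gave 11 calls without sternal replicate B at 7 days, the lowest count.

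RPL27 was not among the 19, and its fall in sternal fat was not shown to differ from that in the other depots. RPS10 was, at -0.43 (adjusted p = 0.0154), a call lost without replicate F at 7 days (adjusted p = 0.0553) and under either centring. In subcutaneous fat 5 members changed upwards against the other depots, where 1.22% of all probe sets did, led by RPS9 at 0.96 (standard error 0.13, adjusted p = 1.63e-05) and RPL36AL at 0.66 (standard error 0.15, adjusted p = 0.0117), followed by RPS19 (0.41), RPL32 (0.39) and RPS7 (0.34). Among probe sets averaging at least 4, 78 of 1752 changed upwards, against 5 of 44 members. None of the 5 was called without the arrays with CKM above 4, which leaves subcutaneous replicate F alone at 7 days, assumed to vary like the other groups. The differences were then 0.69 for RPS9, 0.32 for RPL36AL, 0.13 for RPS19, 0.24 for RPL32 and 0.28 for RPS7. In omental fat RPS9 (0.50, adjusted p = 0.0124) and RPLP1 (0.27, adjusted p = 0.017) were called, where 3.61% of all probe sets were higher, and in perirenal fat RPS9 (-0.51, adjusted p = 0.0218), where 0.759% were lower. Of the 1752 probe sets averaging at least 4, 163 were higher in omental and 19 lower in perirenal fat. The RPLP1 call was lost without omental replicate G or N (adjusted p up to 0.0674), and neither omental call was kept after quantile normalization. The perirenal call was lost without perirenal replicate I (adjusted p = 0.0753) and without the arrays with CKM above 4. In epicardial fat limma called 0 of 55 members, where 0.146% of all probe sets were called, and 9 had an unadjusted p under 0.05. These differences share arrays with each other, since the change in each depot is part of the mean that the others are set against.

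**Figure D4:**
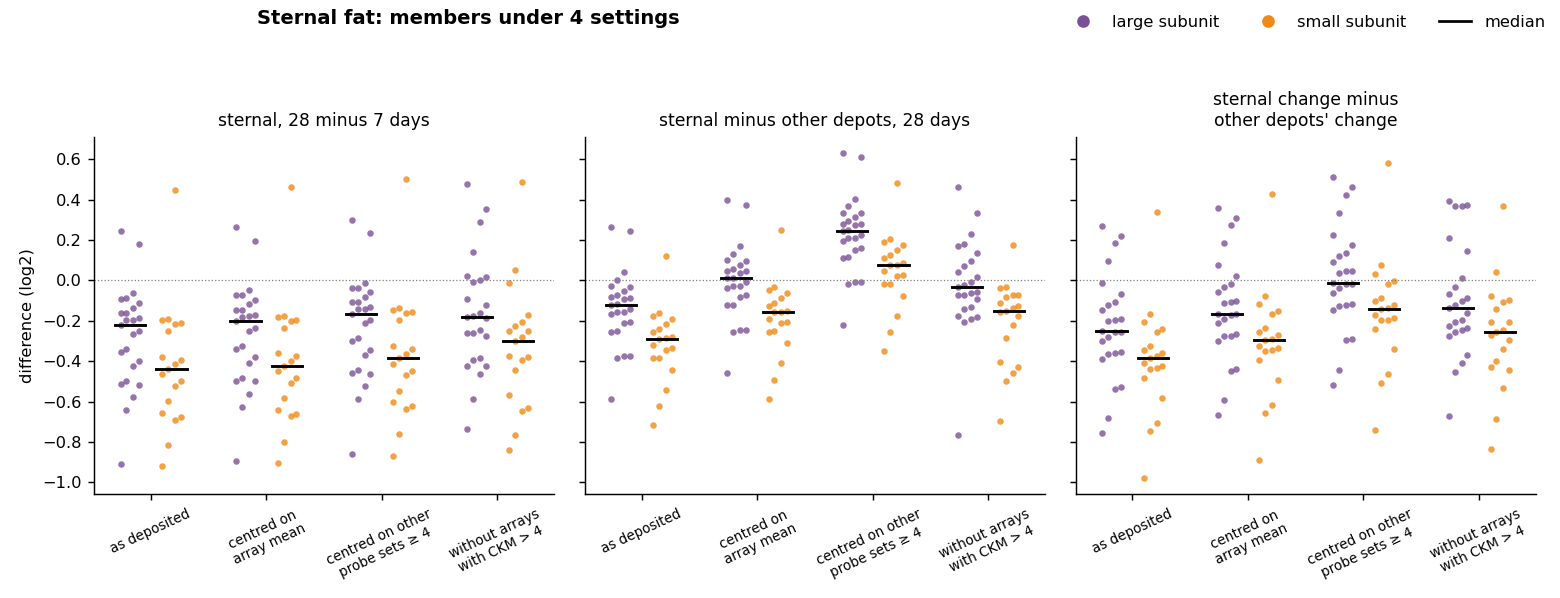
Differences (vertical axis, log2) of the 44 members averaging at least 4 in sternal fat, purple for the large and orange for the small subunit with the median as a bar, for 3 comparisons (panels) and 4 ways of processing (horizontal axis). The median change with age keeps its sign under all 4, at -0.44, -0.42, -0.38 and -0.30 in the small subunit, while the comparison with other depots at 28 days moves from a large subunit median of -0.12 as deposited to 0.25 when centred on the bright probe sets that are not members.

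In sternal fat the small subunit median was -0.29 against other depots at 28 days and the large subunit median -0.12, and with arrays centred on their mean they were -0.16 and 0.01. For the change with age they were -0.44 and -0.22, and with arrays centred on their mean -0.42 and -0.20. The difference between the subunits was not tested. Members moved together within groups. After each group's mean was removed, the median correlation between probe sets over the 49 arrays was 0.50 among small subunit members, 0.33 among large subunit members and 0.38 between the subunits, against 0.07 between members and other bright probe sets. The pairs share arrays and their normalization, so these are descriptions.

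Paralogues differed in what they did between the ages. RPL36AL fell in sternal and rose in subcutaneous fat, while RPS27L, a p53 target near the lowest signal, fell in sternal fat from 3.89 to 4.17 down to 3.02 to 3.70, by -0.61 (adjusted p = 0.000275), beside RPS27 at -0.69. RPL22L1, the copy that replaces RPL22 in some cells, ranged over 2.14 between arrays and its sternal change of -0.48 was not called (adjusted p = 0.194). RPL22 lay at 2.98 to 3.75 in all arrays and was called in no depot between the ages. RPL7L1, RPL10L and RPL39L, all below 4, were not called between the ages either, nor were RPL7, RPS24 and RPL35A, the last 2 further genes of Diamond-Blackfan anaemia.

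Other genes of the translation machinery were counted from lists. Of 19 further proteins of the ribosome or of mRNAs with the same 5′ tract 13 were measured, and between the ages in sternal fat 3 were lower and 1 higher. Of all 10273 probe sets 400 were lower and 254 higher there, and of the 1752 averaging at least 4, 287 and 175. FAU, the precursor of the small subunit protein eS30, was lower by -0.44 (standard error 0.12, adjusted p = 0.0131), the initiation factor EIF4B by -0.63 (adjusted p = 0.00893) and BTF3, of the nascent chain complex, by -0.37 (adjusted p = 0.00234), while PABPC1, which binds poly(A) tails, was higher by 0.46 (adjusted p = 0.0239). In perirenal fat EIF4B and BTF3 were lower and the elongation factor EEF1A1 higher by 0.24 (adjusted p = 0.0222), and in omental fat EEF1A1 and NACA were higher and none was lower. Of the 1752 probe sets averaging at least 4, 156 were lower and 348 higher in perirenal fat. In omental fat 56 of them were lower and 522 higher, and nothing about the list is read from these counts. Of 83 genes of ribosome biogenesis 43 were measured, only 7 with a mean of at least 4, and between the ages in sternal fat 1 was higher and 1 lower (PNO1 and UTP18). In omental fat 4 of the 43 were higher, NCL, the nucleolar protein nucleolin, at 0.59 (adjusted p = 0.00603), NMD3, IMP3 and DIMT1, where 13.5% of all probe sets were higher, so the list is not set apart by this count.

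Of 21 genes of mTORC1, the S6 kinases and factors that bind the 5′ tract 16 were measured. LARP1, which binds that tract, was lower at 28 days in sternal fat by -0.46 (standard error 0.14, adjusted p = 0.0401), and its change differed from the other depots by -0.61 (adjusted p = 0.0149). MAX, on the same list, was higher between the ages in sternal fat by 0.45 (standard error 0.12, adjusted p = 0.013). RPS6KB1, the S6 kinase gene, averaged only 3.73 over the arrays. It was low in sternal fat at 28 days, where it differed from the other 4 depots by -0.77 (standard error 0.10, adjusted p = 2.08e-05), and rose in omental fat by 0.70 (adjusted p = 0.00266). In that sternal comparison 1891 of 10273 probe sets were lower, and 905 of the 1752 averaging at least 4. In omental fat 5 of the 16 were higher at 28 days and none lower, where 13.5% of all probe sets and 29.8% of those averaging at least 4 were higher, and 5 of the 16 average at least 4. Of 15 genes of RNA polymerase I and its factors 5 were measured, and UBTF, its upstream binding factor, was the 1 called, lower in sternal fat at 28 days against the other depots and higher between the ages in subcutaneous fat. UBTF averaged only 3.59 over the arrays. Of the genes around p53 that RPL5 and RPL11 act on 3 were measured and none was called. How these genes behave under other scalings was not computed.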

How the data were processed

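RNA of 49 fat samples was measured on human expression arrays. The deposited log2 values were made by the authors with GCRMA in the affy package (the submitters' processing notes name both, with versions not given in the sources used here). GCRMA estimates background from the bases of each probe, normalizes the arrays and gives 1 value per probe set. Human probes on sheep RNA can lower or flatten signal, and differences near the lowest value are understated. Of 10273 probe sets 9780 carry 1 gene symbol in the platform annotation, 6 several and 487 none.

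Groups came from the tissue and age labels. limma 3.58.1 in R 4.3.3 was fitted to the deposited values of all probe sets, with 1 model per age over the 5 depots (F test, and each depot against the average of the 4 others) and 1 model over all 10 groups (28 against 7 days, and each depot's change against the mean change of the other 4). Adjustment was by Benjamini-Hochberg over all probe sets within each of 22 comparisons, and calls were made at 0.05. The procedure was tested on simulated data with independent normal noise. These held no correlated probe sets and no repeated values, so that test does not cover either. The highest correlation between 2 arrays was 0.9901, and no pair was counted as a repeat. Twins, and depots that may come from 1 lamb, were fitted as independent, and the number of arrays limits the precision.

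Members and lists were chosen with earlier results of these data known. Named were genes of the stalk, of the 5S particle, of Diamond-Blackfan anaemia, of subunit centres, reference genes and paralogues, the 3 called members with the largest difference per comparison, subunit and direction, and up to 3 called genes of each further list. The text names fewer, and adds RPS14, RPS16, RPL37 and RPL37A, chosen after their values were seen. Alternatives were quantile normalization, centring on the array mean, only probe sets averaging at least 4, an intensity trend, the replicate number as a fixed or random block, only the 2 groups compared, no sternal or subcutaneous arrays with CKM above 4 and each array left out. Centring on bright probe sets that are not members was added after seeing the data. Sequences of the genes were not used here.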

Additional observations from a re-analysis of the deposited data

Results flagged for a closer look

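Single arrays that lay far from the others of their group were sought in 270 groups of values (25 genes and the 2 subunit means in each of 10 groups), and 27 were found, where chance gives about 1 in 20. RPL37A was set apart in 6 groups, at 7.95 in epicardial replicate A and 6.62 in perirenal replicate C at 7 days and, at 28 days, in replicate I of epicardial (8.66), omental (8.26), perirenal (8.53) and sternal fat (7.86). In subcutaneous replicate A at 7 days, an array with muscle signal, RPS9 (9.05), RPL38 (4.68) and RPS19 (12.43) were low. In epicardial replicate O at 28 days RPS7 (10.42), RPL3 (9.06), RPL22L1 (3.26) and RPS14 (10.59) were low, and in replicate I RPS19 was high (13.02). In sternal replicate E at 7 days RPL3 (9.68) and the large subunit mean deviation (-0.013) were low.

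The others found were RPL37 in epicardial replicate D (13.48), RPL38 (4.92) and RPL22L1 (4.98) in omental replicate C, RPL11 in omental replicate A (6.88), RPS27L in omental replicate E (4.20), RPL23A in perirenal replicate C (6.98) and RPLP2 in perirenal replicate G (2.50) at 7 days. At 28 days they were RPL23A in omental (6.80) and perirenal replicate M (6.98), and RPLP2 in sternal replicate N (2.64) and subcutaneous replicate M (2.62). RPL23A and RPLP2 repeat an identical value on many arrays, so that any other value stands out.

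Changes with age that differed from the mean change of the other depots in limma were those of RPS9 in omental (0.50), perirenal (-0.51), sternal (-0.98) and subcutaneous fat (0.96), and of RPLP1 in omental fat (0.27). In sternal fat they included RPS7 (-0.75), RPS10 (-0.43), RPS19 (-0.58), RPS27 (-0.70), RPL3 (-0.75), RPL11 (-0.68), RPL32 (-0.30), RPS27L (-0.44), RPL36AL (-0.53), RPL37 (-0.26) and RPS14 (-0.32). In subcutaneous fat they included RPS7 (0.34), RPS19 (0.41), RPL32 (0.39) and RPL36AL (0.66). On the deposited scale RPS9 moved down in sternal and perirenal fat and up in subcutaneous fat between the ages. Its subcutaneous rise was smaller without the arrays with CKM above 4, which leaves replicate F alone there at 7 days.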

How the results depend on the processing

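Counts below are members called of 55, and other values are log2 differences. Quantile normalization gave 10 for the F test at 28 days, 15 for epicardial, 2 for perirenal and 6 for sternal fat at 7 days, 0 for omental, 0 for perirenal, 15 (7 higher and 8 lower) for sternal and 1 for subcutaneous fat at 28 days, 18 for the omental change with age, and 0 and 8 for the omental and sternal differences in change. It left RPS27L at 0.0045 and RPL37 at 0.025 in sternal fat at 28 days. Centring on the array mean gave 13, 1 and 5 for epicardial, perirenal and sternal fat at 7 days, 1 and 18 for perirenal and sternal fat at 28 days, 17 and 7 (2 higher and 5 lower) for the omental and subcutaneous changes, and 1, 8 and 3 for the omental, sternal and subcutaneous differences in change.

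Centring on bright probe sets that are not members gave 36 for the F test at 7 days, 37, 5, 1 and 18 for epicardial, omental, perirenal and sternal fat at 7 days, and 2, 0, 0, 31 (29 higher and 2 lower) and 0 for epicardial, omental, perirenal, sternal and subcutaneous fat at 28 days. It gave 39, 22 and 13 (2 higher and 11 lower) for the omental, perirenal and subcutaneous changes, and 11 (all lower), 15 (9 higher and 6 lower) and 2 for the omental, sternal and subcutaneous differences in change. It turned, in sternal fat at 28 days, RPS10 to 0.15, RPS19 to 0.12, RPS27L to 0.079, RPLP1 to 0.21, RPL37 to 0.15 and RPS14 to 0.077, and the omental change of RPS16 to -0.030. That centring raises the median of all probe sets in sternal fat at 28 days from -0.07 to 0.29, and centring on the array mean to 0.06.

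Testing only probe sets averaging at least 4 gave 9, 1 and 4 for epicardial, omental and subcutaneous fat at 7 days and 1 and 8 for the epicardial and subcutaneous differences in change. An intensity trend gave 1 for perirenal fat at 28 days and 3 for the subcutaneous change. With only the 2 groups in the fit, the epicardial, sternal and subcutaneous changes gave 1, 13 and 0. When sternal and subcutaneous arrays with CKM above 4 were dropped, the F tests gave 7 and 9, epicardial, perirenal, sternal and subcutaneous fat at 7 days 8, 3, 1 and 0, epicardial, perirenal, sternal and subcutaneous fat at 28 days 0, 0, 10 and 1 (lower), the sternal and subcutaneous changes 9 and 1 (lower), and the perirenal, sternal and subcutaneous differences in change 0, 4 and 0. Fewer arrays entered these fits. The cause of the other moves was not tested.

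Whether replicate numbers pair the samples is not settled by the labels. After removal of the group means 18 of 72 same-numbered pairs of arrays correlated above 0.1 (range -0.26 to 0.32, median 0.055 against -0.0091 between other numbers), and 24 of 46 arrays correlated best with their own number. With the number as a fixed replicate block, possible only within an age, the F test at 7 days gave 5, epicardial, perirenal, sternal and subcutaneous fat at 7 days 2, 1, 1 and 1, and epicardial, perirenal and subcutaneous fat at 28 days 0, 0 and 1. As a random block it changed no count by more than the sternal difference in change, from 19 to 21.

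Leaving out 1 array gave 6 to 15 and 15 to 26 for the F tests at 7 and 28 days. Epicardial, omental, perirenal, sternal and subcutaneous fat gave 1 to 11, 0 to 0, 2 to 7, 0 to 4 and 1 to 2 at 7 days, and 0 to 1, 3 to 4, 0 to 3, 18 to 32 and 1 to 5 at 28 days. In the same order the changes gave 2 to 5, 4 to 6, 8 to 9, 21 to 30 and 2 to 5, and the differences in change 0 to 1, 1 to 4, 0 to 2, 11 to 22 and 3 to 7. The balance turned to lower for subcutaneous fat at 28 days without replicate M (1 lower), and for its change without replicate A at 7 or M at 28 days (2 higher and 3 lower). Of 94 called differences of single genes 50 kept their call with every array left out in turn, and in 3682 such fits 0 changed sign. The 94 were chosen because they were called in these same data, so a change of sign was unlikely from the start. Most values lie near the lowest signal, where neither a change nor its absence can be read.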

Other observations

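RPL37A, a small zinc finger protein of the large subunit, had the widest range of all members over the arrays, 2.96, and a pattern that followed the replicate letter at 28 days. Its 5 arrays of letter I, 1 in each depot, measured 7.86 to 8.66 with a median of 8.53, and the other 20 arrays at 28 days 6.20 to 7.63 with a median of 6.60. At 7 days it measured 6.30 to 9.15. The gene and the letter were chosen after the values were seen, the labels do not say that a letter is an animal, and no other member was searched for such a pattern.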
